A study of Mus musculus with 5 samples.

Results

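Heme is built in the mitochondrion and cytosol from glycine and succinyl-CoA, is taken apart by heme oxygenases, and releases iron that is stored in ferritin. The 10 mouse genes described here lie along that route: Alas1, Cpox, Urod and Fech of heme synthesis, Hmox1, Hmox2, Blvra and Blvrb of heme degradation, Hp, which binds free haemoglobin, and Fth1, which stores iron. They were picked by symbol out of 14457 gene symbols, and all 10 had a row and passed the filter on low values. The choice was made with the irradiated-against-control results of these libraries already known. Their differences between groups are therefore a description, given with no p-value, and whether each passed the test over all genes is stated only as a fact of that fit.

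RNA was measured in leukocytes sorted from mouse lung for CD45, a surface protein of nearly all leukocytes. All mice carried tumours labelled MC38/MC38, MC38 being a mouse colon adenocarcinoma line, and lungs were taken 3 days after irradiation of tumours. The groups were 3 control libraries (ctrl 1, ctrl 2 and ctrl 3) and 2 libraries from irradiated mice (IR 1 and IR 2). The labels give no strain, age, sex, radiation dose or sham treatment, and do not say that each library is a separate animal, so the spread between libraries may be technical.

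The values are read counts per gene that the authors scaled between libraries, called scaled read counts here. They summed to 7232126 to 7425923 in ctrl and to 7544034 and 8414753 in IR. On the first principal component, with 41.6% of the variance, IR 2 (131) stood apart from IR 1 (-6.00) and from the ctrl libraries (-51.9 to -30.5). All 5 leukocyte markers were detected in every library, with Ptprc, which encodes CD45, between 15543 and 27247. All 14 lung epithelial markers, of cells the sort should remove, were also detected in every library. Their summed share of the total was 0.327% to 0.389% in ctrl, 1.59% in IR 1 and 0.698% in IR 2. Of the 14, 2 were higher by limma, where 1.14% of all genes tested were higher. The log2 difference was positive in 11 of the 14 and negative in 3. Their median log2 deviation from the ctrl mean was 1.34 in IR 1 but 0.095 in IR 2, below the 0.136 of ctrl 1. Scgb1a1 had the highest mean. The 15 neutrophil markers summed to 0.440% to 0.764% in ctrl, 1.04% in IR 1 and 1.78% in IR 2. Of these, 7 were higher in IR by limma, where 1.14% of all genes tested were higher. In all 15 both IR libraries lay above all ctrl libraries, as in 15.2% of all genes tested. Cxcr1 was at 0 in ctrl 1. All 11 T cell markers had lower means of log2 values in IR. By limma 1 was called lower, where 0.36% of all genes tested were lower. The 11 summed to 0.0686% to 0.0790% in ctrl, 0.0457% in IR 1 and 0.0346% in IR 2. All 9 B cell markers were likewise lower on average, with 1 called lower, beside the same 0.36%. They summed to 0.101% to 0.180% in ctrl, 0.105% in IR 1 and 0.0785% in IR 2. The 12 monocyte markers summed to 0.418% to 0.501% in ctrl, 0.584% in IR 1 and 0.583% in IR 2. Fn1 had the highest mean. Of the 12, 7 had a positive and 5 a negative log2 difference, with 1 called higher, beside 1.14%. The median log2 differences of 11 alveolar and 7 interstitial macrophage markers were -0.51 and -0.58. By limma 0 of them were called, beside 1.5%. In bulk RNA a change in the number of cells of a type and a change in RNA per cell cannot be told apart. The part of these cell types in the results was not tested.

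Alas1 encodes the housekeeping form of 5-aminolevulinate synthase, the rate-limiting first step of heme synthesis, and is itself repressed by heme. It is the member with the largest difference. Its scaled read count was 632, 676 and 649 in ctrl and 1939 and 1832 in IR. The control libraries lay within 1.07-fold of each other, both IR libraries stood clear above them, and the IR libraries were close to each other. The ctrl mean was 652 ± 22.1 (SD, n = 3) and the IR mean 1885 ± 75.7 (SD, n = 2), a ratio of 2.89. The difference in log2(value + 1) was 1.53 ± 0.22 (SE). The gene lies on chromosome 9, 106233455 to 106248654, minus strand (GRCm38). A transcript on the opposite strand, 4930500F10Rik, overlaps its 5' end and had values of 0 to 21.0, far below those of Alas1.

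Over all genes, 192 were called by limma, and 15 of them, Alas1 included, were called again in all 5 fits that lacked 1 library. Its difference ran from 1.49 to 1.57 over those fits. Alas1 in IR 2 was 0.945 times its value in IR 1. The part of the epithelial, neutrophil and monocyte markers, each with a higher summed share in IR, in the Alas1 difference was not tested.

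Hp encodes haptoglobin, a plasma protein that captures haemoglobin set free from red cells. Liver is its main source, and it is also made in myeloid cells, where neutrophils store it in granules. Its scaled read count was 2679, 2657 and 3159 in ctrl and 6098 and 6851 in IR. Again both IR libraries stood above all ctrl libraries, with the 2 IR values within 1.12-fold of each other. The ctrl mean was 2832 ± 284 (SD, n = 3) and the IR mean 6475 ± 533 (SD, n = 2), a ratio of 2.29, and the log2 difference was 1.20 ± 0.19 (SE). Without ctrl 1 Hp kept a difference of 1.16 but no longer passed the test; it passed with each of the other 4 libraries left out. The gene lies on chromosome 8, 109575128 to 109579172, minus strand. Neutrophil markers were higher in the same 2 libraries. They summed to 31811 to 56755 in ctrl, with IR 1 at 78425 and IR 2 at 149969, and S100a9 gave the largest part of the sum (24750 and 57485 in IR 1 and IR 2). Single markers were from 1.19-fold (Retnlg) to 3.06-fold (Ngp) higher in IR 2 than in IR 1. Their part in the Hp difference was not tested. None of the 5 liver markers looked up had a row in the table used here.

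Fth1 encodes the ferritin heavy chain, which oxidises ferrous iron and packs it into the ferritin shell. It was by far the most abundant of the 10 genes. Its scaled read count was 16413, 18779 and 22459 in ctrl and 25969 and 35627 in IR. Both IR libraries were above all ctrl libraries, but the step from the highest ctrl to the lower IR library was smaller than the range within ctrl. The ctrl mean was 19217 ± 3047 (SD, n = 3) and the IR mean 30798 ± 6829 (SD, n = 2), a ratio of 1.60, with a log2 difference of 0.67 ± 0.18 (SE). Fth1 did not pass the limma threshold over all genes. It did pass without IR 1, with a difference of 0.90, and with a pseudocount of 10 in place of 1, with 0.67. Ferritin genes have processed copies elsewhere in the genome, and how reads that match several places were counted is not given in the sources used here, so ferritin values are uncertain to that extent.

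**Figure D1:**
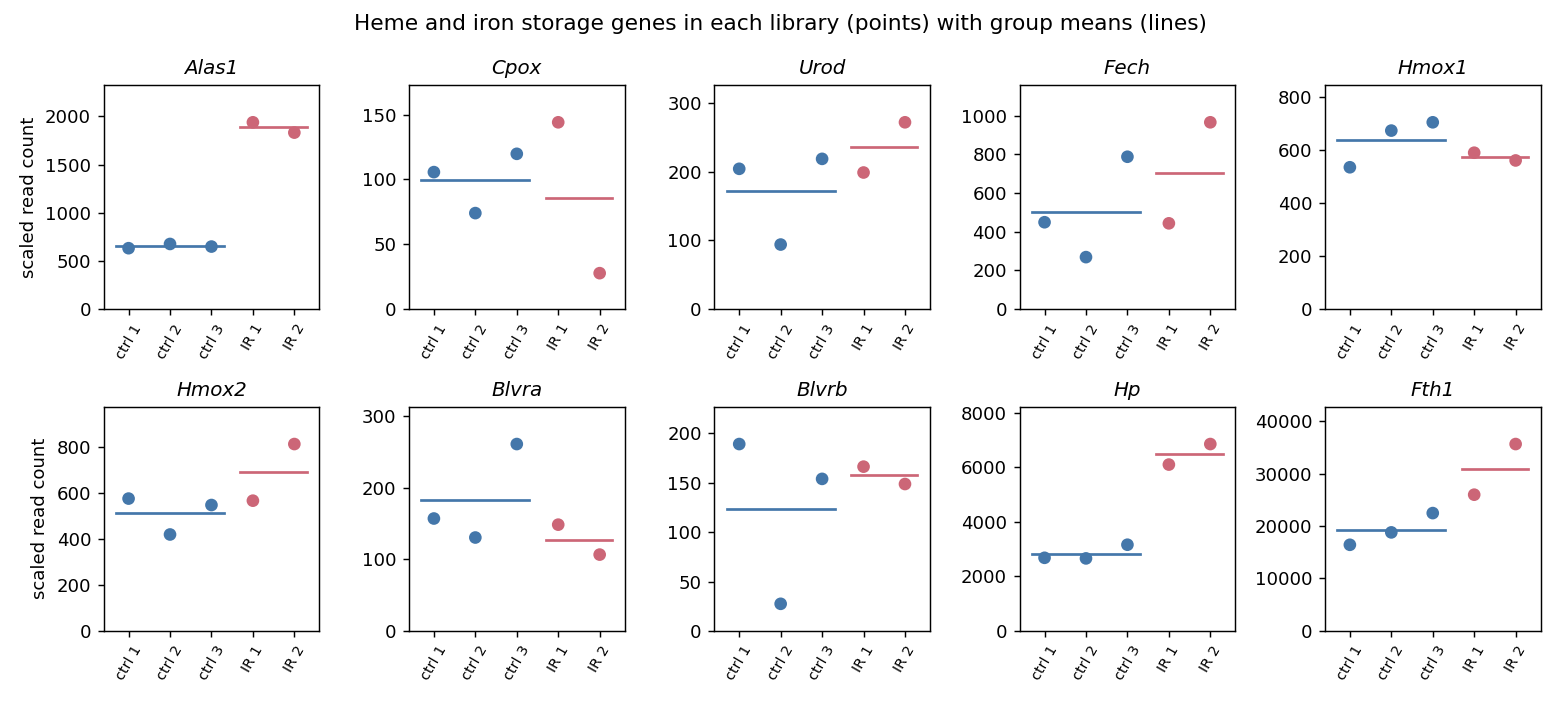
Scaled read count (vertical axis, from 0) of each of the 10 genes in the 3 ctrl and 2 IR libraries (horizontal axis); points are libraries and lines are group means. For Alas1, Hp and Fth1 both IR points lie above all 3 ctrl points, and for the other 7 genes the groups overlap.

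Of the 10 genes, 2 were called by limma (Alas1 and Hp), both higher in IR, where 1.5% of all 12777 genes tested were called, 1.14% higher and 0.36% lower. Groups did not overlap for 3 of the 10, all with IR above ctrl, where 31.5% of all genes tested did not overlap, 15.2% with both IR libraries above and 16.3% with both below. The median log2 difference of the 10 was 0.52, against -0.05 for all genes tested. Since the genes were chosen with this contrast in view, nothing is read from these shares. Alternative scalings changed the sign of none of the 10 differences.

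**Figure D2:**
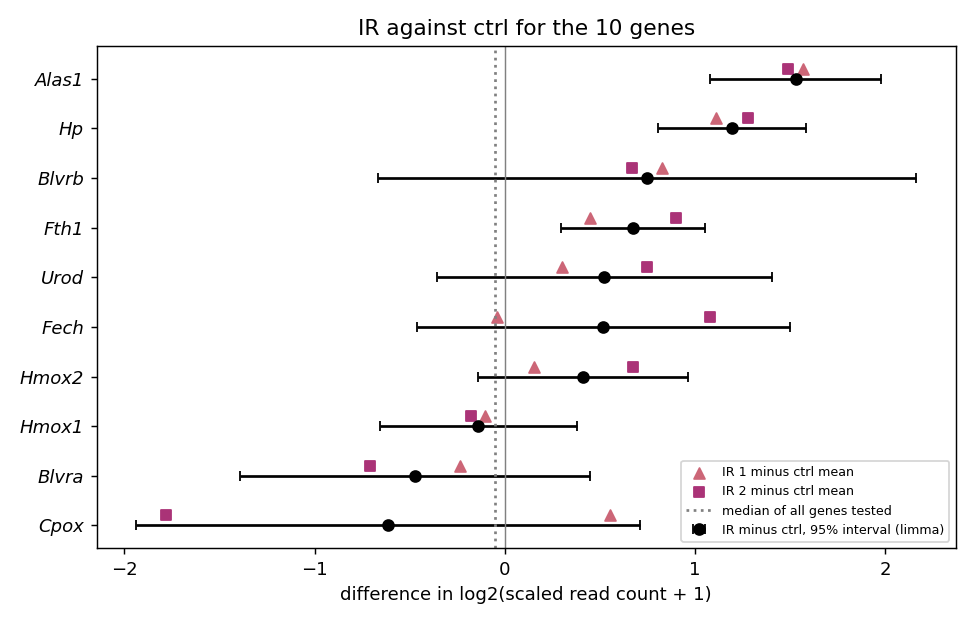
Difference between IR and ctrl in log2(scaled read count + 1) for each of the 10 genes (horizontal axis), with the 95% interval of the fit as a bar, the 2 IR libraries against the ctrl mean as a triangle (IR 1) and a square (IR 2), and the median of all genes as a dotted line. Triangle and square lie close together for Alas1, Hp, Hmox1 and Blvrb and far apart for Cpox and Fech.

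Fth1 is also the only one of the 10 whose mature mRNA held a match to the iron-responsive element, the hairpin through which iron regulatory proteins act when iron is scarce. In the 5' UTR of ferritin, ferroportin and Alas2 mRNA the hairpin is known to block translation; in the 3' UTR of the transferrin receptor mRNA it is known to protect the mRNA from decay. The search, made on the sense strand of GENCODE protein-coding transcripts, took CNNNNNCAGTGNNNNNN with the 5 bases before CAGTGN pairing with the 5 after it, G-T pairs allowed and the last loop base not G. It matched 222 of 21877 protein-coding genes (1.01%). The matches of 5 genes of iron handling are printed because these genes are compared next; capitals mark the hairpin loop, and each run is 30 bases of mRNA, 5′ to 3′, with T for U.
Fth1, 5' UTR, chr19:9982731-9982760, plus strand: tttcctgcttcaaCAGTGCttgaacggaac
Ftl1, 5' UTR, chr7:45459779-45459808, minus strand: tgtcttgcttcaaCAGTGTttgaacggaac
Slc40a1, 5' UTR, chr1:45925465-45925494, minus strand: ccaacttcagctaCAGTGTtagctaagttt
Alas2, 5' UTR, across an intron between chrX:150547457 and 150552149, plus strand: tttggttcgtcctCAGTGCagggcaacagg
Tfrc, 3' UTR, element 1 of 4, chr16:32631218-32631247, plus strand: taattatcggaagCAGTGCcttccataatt
Tfrc, 3' UTR, element 2 of 4, chr16:32631597-32631626, plus strand: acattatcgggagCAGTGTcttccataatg
Tfrc, 3' UTR, element 3 of 4, chr16:32631662-32631691, plus strand: tctatatcggagaCAGTGAtctccatatgt
Tfrc, 3' UTR, element 4 of 4, chr16:32631709-32631738, plus strand: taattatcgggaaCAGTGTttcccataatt

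Ftl1, the ferritin light chain that forms the shell with Fth1, had scaled read counts of 2608, 2891 and 3595.5 in ctrl and 4289.5 and 4025 in IR. Both IR libraries were above ctrl, and the log2 difference of 0.47 ± 0.20 (SE) did not pass (limma adjusted p = 0.257). Per kilobase of exon, Fth1 was 2.41 to 2.51 times Ftl1 in the 3 ctrl libraries and 2.34 and 3.42 times in IR 1 and IR 2. The ratio was thus nearly constant in 4 libraries, and IR 2 alone had more heavy chain for its light chain.

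Slc40a1 (ferroportin, the iron exporter of the cell) and Tfrc (the transferrin receptor, which takes iron up) were singled out after their values were seen. Slc40a1 was 314, 334 and 571 in ctrl and 814 and 832 in IR, a log2 difference of 1.07 ± 0.29 (SE; limma adjusted p = 0.0562). Tfrc was 352, 336 and 413 in ctrl and 261 and 259.7 in IR, a log2 difference of -0.49 ± 0.31 (SE; limma adjusted p = 0.482). Neither passed the threshold. The groups did not overlap, with Slc40a1 higher and Tfrc lower in IR. Of all genes tested, 31.5% did not overlap either, 15.2% with both IR libraries above and 16.3% with both below. Alas2, which also holds a match in the 5' UTR, had overlapping groups and a log2 difference of 0.29.

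**Figure D3:**
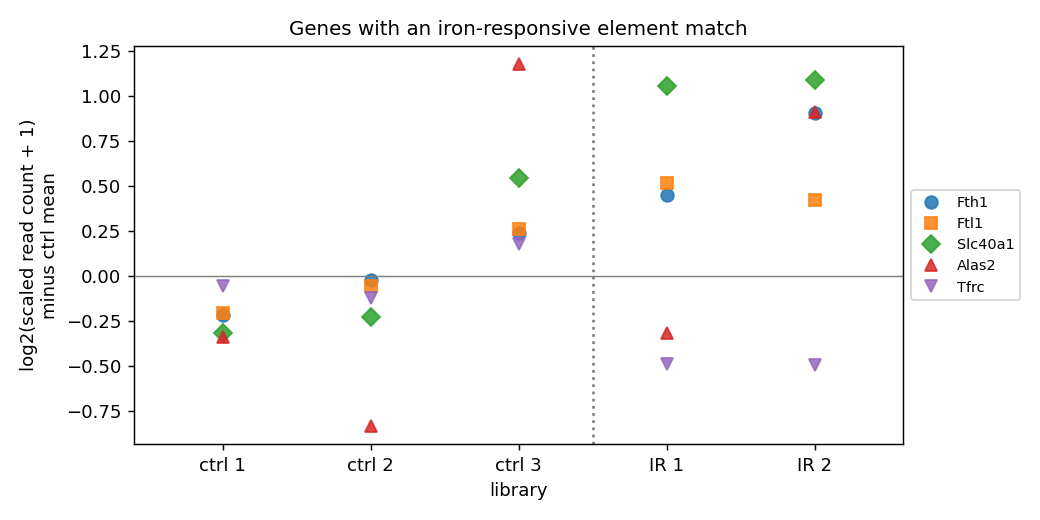
Deviation of log2(scaled read count + 1) from the ctrl mean (vertical axis) in each library (horizontal axis) for the 5 genes with an iron-responsive element match shown above. Slc40a1 lies above all ctrl libraries in both IR libraries and Tfrc below them, while Alas2 is highest in ctrl 3 and IR 2.

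The 3 later synthesis enzymes among the 10 genes did not share the separation of groups seen for Alas1. Urod, uroporphyrinogen decarboxylase in the cytosol (chromosome 4, 116989965 to 116994413), was 204.5, 94.1 and 219 in ctrl and 199 and 272 in IR. Cpox, coproporphyrinogen oxidase of the mitochondrial intermembrane space (chromosome 16, 58670292 to 58717636), was 106, 74.0 and 119.7 in ctrl and 144 and 27.7 in IR. Fech, ferrochelatase, which inserts iron into protoporphyrin (chromosome 18, 64452914 to 64490251), was 449, 268.5 and 787 in ctrl and 443 and 965 in IR. In all 3 genes the groups overlapped. For Cpox the IR libraries were the highest and the lowest of the 5, and for Fech they differed 2.18-fold, with ctrl itself spanning 2.93-fold.

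The log2 differences were 0.52 ± 0.43 (SE) for Urod, -0.62 ± 0.64 for Cpox and 0.52 ± 0.44 for Fech. Their 95% intervals, -0.36 to 1.41, -1.94 to 0.71 and -0.46 to 1.50, leave room for a 2-fold change in at least 1 direction. IR 2 set the sign of both mitochondrial enzymes: without it Cpox had a difference of 0.55 and Fech of -0.042.

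Fech and Urod put the libraries in 1 order, which was close to that of red cell genes. Alas2, the erythroid form of 5-aminolevulinate synthase, was 874, 621 and 2502 in ctrl and 889 and 2077 in IR. The beta globin gene Hbb-bs was 2161, 955.5 and 7185 in ctrl and 2218 and 3999 in IR. In Fech, Urod, Alas2, Hbb-bs, Hbb-bt and Hba-a1 the same 2 libraries, ctrl 3 and IR 2, held the 2 highest values, and ctrl 2 the lowest. For Urod the likeness lay in the order and less in the size. It was 204.5 in ctrl 1 and 219 in ctrl 3, where Alas2 was 874 and 2502. Globin genes have near-identical copies, so the split of reads between them is uncertain. Fech per kilobase was 0.0892, 0.0751 and 0.0546 times Alas2 in ctrl and 0.0866 and 0.0807 times in IR, while Fech itself varied 3.59-fold and Alas2 4.03-fold over the 5 libraries.

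Of 12 erythroid markers, 9 had a row, and their sum was 1918 to 14086 in ctrl, 4929 in IR 1 and 8339.5 in IR 2. Epb42 and Ermap were at 0 in both ctrl 1 and ctrl 2, and Ermap also in IR 1. All 9 log2 differences were positive, with a median of 0.93, against -0.05 for all genes tested. By limma 0 of the 9 were called, where 1.5% of all genes tested were called, and 0 at an unadjusted p under 0.05. In all 9 the groups overlapped, where 31.5% of all genes tested did not overlap. The part of red cell RNA in the Fech and Urod values was not tested.

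**Figure D4:**
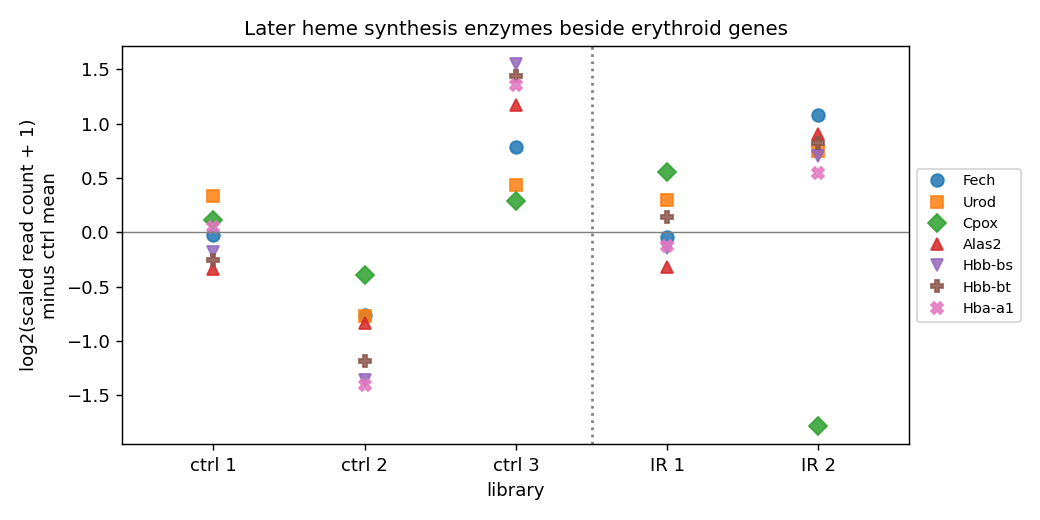
Deviation of log2(scaled read count + 1) from the ctrl mean (vertical axis) in each library (horizontal axis) for Fech, Urod and Cpox and for the erythroid genes Alas2, Hbb-bs, Hbb-bt and Hba-a1. Fech, Urod and the erythroid genes are highest in ctrl 3 and IR 2 and lowest in ctrl 2, and Cpox is lowest in IR 2.

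The 2 synthases thus differed in pattern. Per kilobase of exon, Alas1 was 0.282, 0.424 and 0.101 times Alas2 in ctrl and 0.849 and 0.343 times in IR, so IR 2 lay within the ctrl range. The list of other synthesis enzymes held 5 genes, Alas2 among them. By limma 0 of the 5 were called, with 1 lower at an unadjusted p under 0.05. Of all genes tested, 1.5% were called and 7.2% were lower at that unadjusted p. The median log2 difference of the 5 was -0.49. Ppox, protoporphyrinogen oxidase, was 45.6 to 111 in ctrl and 4.70 and 25.2 in IR (log2 difference -2.57 ± 0.92 SE, limma adjusted p = 0.177). Both IR libraries lay below all ctrl libraries without passing the test.

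Hmox1, the inducible heme oxygenase that splits heme into biliverdin, carbon monoxide and iron, is a classic response gene of heme and oxidative stress. It lies on chromosome 8, 75093621 to 75100589. Its scaled read count was 535, 673 and 704.5 in ctrl and 589.8 and 561 in IR. Both IR values fell inside the ctrl range. The log2 difference was -0.14 ± 0.25 (SE), with a 95% interval of -0.66 to 0.38. A 2-fold change in either direction lies outside that interval. The interval rests on the spread between these 5 libraries, which may be technical, so it sets no bound for irradiated against control mice.

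Hmox2 encodes the constitutive heme oxygenase (chromosome 16, 4726361 to 4766742). It was 575.5, 419 and 547.5 in ctrl and 566 and 813 in IR, with a log2 difference of 0.41 ± 0.27 (SE) and an interval of -0.14 to 0.96. IR 2 was the highest library and IR 1 lay inside the ctrl range. Cdip1 lies on the opposite strand across part of Hmox2 and had values of 191 to 230.0 in ctrl and 105 and 108 in IR. The strand setting of the counting is not given in the sources used here, so reads of the 2 genes may not be fully separated. Per kilobase of exon, Hmox2 was 0.850, 0.492 and 0.614 times Hmox1 in ctrl, 0.758 in IR 1 and 1.15 in IR 2. The inducible gene was thus the more abundant of the pair in 4 of 5 libraries.

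Biliverdin reductases turn biliverdin into bilirubin. Blvra (chromosome 2, 127070665 to 127097084), the main adult enzyme, was 157, 131 and 261 in ctrl and 149 and 107 in IR. Blvrb (chromosome 7, 27447978 to 27466144), a broader flavin reductase that is abundant in red cells, was 189, 27.4 and 154 in ctrl and 166 and 149 in IR. The groups overlapped in both genes. The log2 differences were -0.47 ± 0.45 (SE) for Blvra and 0.75 ± 0.67 for Blvrb. The Blvrb value rests on ctrl 2, which was 6.91-fold below ctrl 1; without it the difference was -0.12. That library also had the lowest Fech, Urod and globin values.

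To compare levels between genes, values were divided by the kilobases of merged exons and by the library total, as for RPKM. In ctrl this level was 755 ± 110 (SD, n = 3) for Fth1, 241 ± 21.2 for Hp, 49.6 ± 6.47 for Hmox1, 31.7 ± 5.21 for Hmox2 and 14.4 ± 0.462 for Alas1. It was 10.2 ± 3.72 for Blvra, 9.09 ± 3.58 for Urod, 6.07 ± 4.21 for Blvrb, 4.93 ± 2.53 for Fech and 2.04 ± 0.469 for Cpox. From Fth1 down to Alas1, and between Fech and Cpox, the ranges of neighbouring genes did not overlap in ctrl. From Alas1 to Fech the ranges of each neighbouring pair did overlap.
In IR the level of Alas1 was 38.4 ± 4.50 (SD, n = 2), beside 41.3 ± 4.67 for Hmox1 and 38.7 ± 6.86 for Hmox2. The range of Alas1 then overlapped those of both heme oxygenases, which lay above it in every ctrl library. Annotated exons that these cells do not use would lower a gene's level per kilobase, which bears most on Fech with 13838 bases of merged exons.

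Beyond the 10 genes, 8 lists of heme and iron genes held 105 genes, 94 with a row and 92 tested. By limma, 5 were higher and 0 lower in IR at an adjusted p under 0.05, where 1.14% of all genes tested were higher and 0.36% lower. At an unadjusted p under 0.05, 20 were higher and 2 lower, where 7.76% of all genes tested were higher and 7.2% lower. The median log2 difference of the 92 was 0.33. All 5 calls came from the lists of Nrf2 targets and of heme proteins.

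Nrf2 is a transcription factor that, when released from Keap1, switches on antioxidant genes, Hmox1 among them. Of 14 other Nrf2 targets listed, 13 were tested, with a median log2 difference of 0.61. By limma 4 were higher, 0 lower and 9 not called, where 1.14% of all genes tested were higher and 0.36% lower. Gsr, glutathione reductase, rose from 3984, 4790.3 and 4900.0 in ctrl to 6745 and 10240.5 in IR, a log2 difference of 0.87 ± 0.20 (SE; limma adjusted p = 0.0258). Taldo1, transaldolase of the pentose phosphate pathway, rose by 0.84 ± 0.19 (SE; limma adjusted p = 0.0276). Osgin1, an oxidative stress induced growth inhibitor, rose by 1.09 ± 0.26 (SE; limma adjusted p = 0.0391). Mgst1, which detoxifies lipid peroxides with glutathione at membranes, rose by 1.44 ± 0.25 (SE; limma adjusted p = 0.00329).
Among the most abundant that were not called, Slc7a11, the cystine importer, had a difference of 0.79 ± 0.67 (SE; limma adjusted p = 0.664) and passed without IR 1 (1.62). Tkt and Pgd, both of the pentose phosphate pathway, had 0.48 ± 0.19 (limma adjusted p = 0.233) and 0.48 ± 0.22 (0.294). Mgst1 was called whichever library was left out. With 1 library left out, Gsr, Taldo1 and Osgin1 passed only where it was IR 1; without the other libraries in turn they kept differences of at least 0.57, 0.61 and 0.70. Neutrophil markers were higher in the same 2 libraries, with the summed values given beside Hp, and their part in this result was not tested.

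Of 9 genes listed as heme proteins of leukocytes, 7 were tested. Where 1.14% of all genes tested were higher, 1 of the 7 was. This was Cat, the heme enzyme catalase, which rose from 1032, 761 and 1299 in ctrl to 2064 and 1714 in IR, a log2 difference of 0.90 ± 0.23 (SE; limma adjusted p = 0.0478). Its call was lost with any 1 library left out and after scaling to library totals (0.78). Cybb, the heme-bearing subunit of the phagocyte NADPH oxidase, had a difference of -0.31 ± 0.18 (SE; limma adjusted p = 0.435). Its cytosolic partner Ncf1, which holds no heme, had 0.65 ± 0.21 (0.119), and Ptgs2, a heme-dependent prostaglandin synthase, 0.97 ± 0.41 (0.322). Without IR 1, Ncf1 (0.81) and Ptgs2 (1.60) passed.

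The genes that control heme oxygenase and clear heme were not called. Of 13 listed, 12 were tested by limma, with 0 called, where 1.5% of all genes tested were called. At an unadjusted p under 0.05, 2 were higher, where 7.76% of all genes tested were higher. The median log2 difference of the 12 was 0.13. Bach1, the heme-sensing repressor of Hmox1, was 1385 to 1905 in ctrl and 1884 and 1837 in IR, with a difference of 0.17 ± 0.21 (SE; limma adjusted p = 0.746). Por, the reductase that feeds electrons to heme oxygenase, was 1121.5, 1741 and 1325 in ctrl and 2694 and 2164 in IR. Both IR libraries were above ctrl, and the difference of 0.81 ± 0.22 (SE; limma adjusted p = 0.0593) passed without IR 2 (0.97) and with a pseudocount of 10 (0.81). Lrp1, the receptor for heme bound to hemopexin, had -0.34 ± 0.19 (SE; limma adjusted p = 0.401).

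Iron storage, uptake and export genes were likewise not called. Of 23 listed, 19 were tested by limma, with 0 called, where 1.5% of all genes tested were called. The median log2 difference of the 19 was 0.47. At an unadjusted p under 0.05, 7 were higher and 0 lower, where 7.76% of all genes tested were higher and 7.2% lower. Both IR libraries lay above all ctrl libraries in 8 and below them in 2, beside 15.2% and 16.3% of all genes tested. The part of the neutrophil markers, higher in both IR libraries, in this list, Lcn2 included, was not tested. Lcn2, lipocalin 2, which withholds iron from bacteria by binding siderophores, was 418, 881 and 858.5 in ctrl and 1464 and 4799.6 in IR (1.96 ± 0.64 SE, limma adjusted p = 0.278). It passed without IR 1 (2.81) and with robust estimation off (1.96). Pcbp2, an iron chaperone and RNA-binding protein, had a difference of 0.20 ± 0.19 (SE; limma adjusted p = 0.661).
Among 11 tested genes of heme and porphyrin transport (13 listed) and 16 of iron sensing and iron-sulfur clusters, 0 were called by limma. At an unadjusted p under 0.05, 0 and 1 passed, the latter lower in IR. Of all genes tested, 1.5% were called and 7.2% were lower at that unadjusted p. The median differences of these lists were 0.06 and 0.03. Pgrmc1, a heme-binding membrane protein, had 0.29 ± 0.27 (SE, limma adjusted p = 0.665). Slc48a1, a heme transporter of the lysosome, had 0.12 ± 0.28 (0.883), and Tmem14c, a mitochondrial porphyrin transporter, 0.06 ± 0.30 (0.952). Iscu, the scaffold on which iron-sulfur clusters form, had 0.54 ± 0.32 (SE; limma adjusted p = 0.437), Fbxl5, the iron-sensing ubiquitin ligase subunit, 0.52 ± 0.26 (0.350), and Hspa9, a mitochondrial chaperone of cluster assembly, -0.10 ± 0.21 (0.866). Fbxl5 passed without IR 1 (0.93), and its difference ran down to 0.11 with another library left out.

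**Figure D5:**
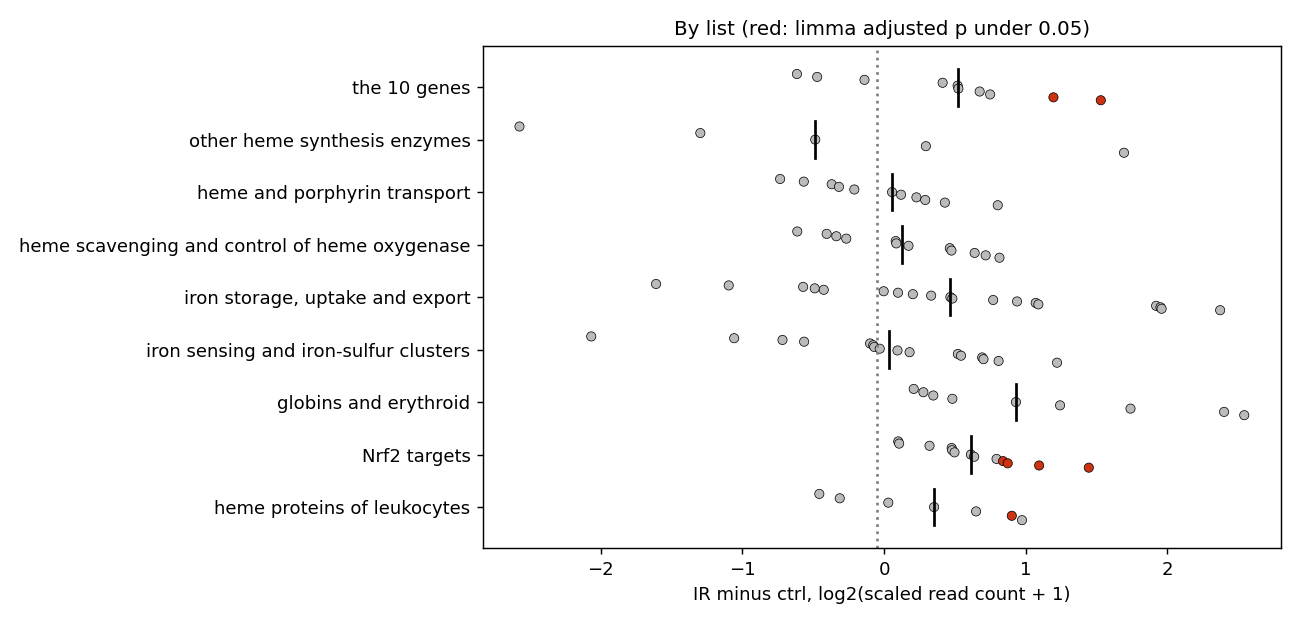
Difference between IR and ctrl in log2(scaled read count + 1) (horizontal axis) for every tested gene of the 10 genes and the 8 heme and iron lists (rows); red points passed the limma test over all genes, short black lines are list medians and the dotted line is the median of all genes. The called genes lie among the 10 genes, the Nrf2 targets and the heme proteins, and the other synthesis enzymes spread to both sides.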

How the data were processed

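The deposited table held 14457 gene symbols in 5 libraries, made with a stranded total RNA kit for small inputs per the labels' protocols. Its values are a signal: read counts that the authors scaled between libraries, in a way that no source used here describes. HISAT2, HTSeq and mm10 are named per the submitters' processing notes, without versions. Low values stepped by a near-constant amount per library, but not exactly enough to recover reads, so depth is known only as the scaled totals and no count test was run. The 12777 genes that reached 10 in 2 or more libraries were fitted as log2(value + 1) with limma 3.58.1 in R 4.3.3 (trend, robust, no covariate). The two-sided p-values were adjusted over these genes by the method of Benjamini and Hochberg, with a threshold of 0.05. With 3 against 2 libraries an exact permutation test reaches 0.1 at best, so none is given. The fit was tested on simulated data with 200 changed genes, in which 8.24% of calls were false, above the nominal threshold. It recovered 10.1% of 2-fold and 42.8% of 4-fold changes, so a gene not called may still differ. How spread was simulated was revised during development and moved these shares.

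The 10 genes and all lists were chosen with earlier results of these data known. From each list, called genes and the 3 others with the highest mean are named; exceptions are stated, and some genes the rule named are not reported here. Positions, merged exon lengths and transcript sequences come from GENCODE vM21 on GRCm38, the build that mm10 denotes; it had 14105 of the symbols. Protein and promoter sequences were not used here. Alternatives covered scaling (library totals, trimmed mean of M values, median ratios), the filter, the pseudocount, robust estimation and each library left out.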

Additional observations from a re-analysis of the deposited data

How the results depend on the processing

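The 192 genes called over the whole table became 18 with no filter on low values, 314 with a pseudocount of 10, and 19 to 1006 with 1 library left out, the highest without IR 1. Scaling to library totals moved the median log2 difference of all genes from -0.05 to -0.17 and the share of calls that were higher in IR from 76.0% to 55.2%. Of the 10 genes, 2 were called in the reported fit, 2 to 3 under the other settings on all libraries, and 1 to 3 with 1 library left out. With 1 library left out the log2 difference of Cpox ran from -1.78 to 0.55, of Fech from -0.042 to 1.08, of Blvrb from -0.12 to 1.26 and of Urod from 0.14 to 0.75. Outside the 10 genes, signs turned with 1 library left out for Alas2 (-0.32 to 0.91), Hbb-bs (-0.40 to 1.05), Hbb-bt (-0.11 to 1.20), Hba-a1 (-0.49 to 0.89), Pgrmc1 (-0.066 to 0.65), Tmem14c (-0.22 to 0.34) and Slc7a11 (-0.034 to 1.62), and after scaling to library totals for Slc48a1 (-0.0011) and Tmem14c (-0.065). None of these genes was called in the reported fit. Without IR 1, Slc7a11 (1.62), Lcn2 (2.81), Fbxl5 (0.93), Ncf1 (0.81) and Ptgs2 (1.60) passed. With no filter or without robust estimation, Gsr, Taldo1, Osgin1 and Cat did not pass. The causes were not tested. No paired analysis was possible because the labels give no replicate numbers; those used here follow accession order. When IR 1 or IR 2 was left out, the lone IR library was assumed to vary like the ctrl libraries.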
